A study of Mus musculus with 20 samples.

Results

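The 8 contractile genes described here were Acta2, Acta1, Actg2, Tagln, Cnn1, Tpm1, Tpm2 and Myl9. They were picked by gene name from a table of 54532 genes, and all 8 were found. The table comes from bulk RNA sequencing of mouse articular chondrocytes, the cells that make and keep the cartilage of joints, taken from mice aged 6 weeks. Cells were treated for 48 hours with one of 4 agents, and each group had 5 libraries, 20 in all. The 25HC group received 25-hydroxycholesterol at 20 µM, an oxysterol. The 25HC3S group received 25-hydroxycholesterol-3-sulfate at 20 µM, the same sterol carrying a sulfate. The GW3965 group received GW3965 at 2 µM, a small molecule that activates the liver X receptors. The Vehicle group received DMSO, the solvent. The labels give no strain, sex, passage or count of animals, and nothing in them tells replicate libraries of one culture from those of different animals. The p-values thus measure the scatter among 5 libraries a group, pooled over all 4 groups also where only 2 are compared. Part of that scatter may be technical.

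Actin filaments and myosin together produce force in cells. Smooth muscle and myofibroblasts build stress fibres from α smooth muscle actin with calponin, transgelin and tropomyosins, and many of these genes are driven by serum response factor (SRF) with its actin-sensing partners of the MRTF family, which bind the DNA element called the CArG box. Articular chondrocytes spread on a culture dish are known to gain actin stress fibres and contractile genes as they lose their cartilage program, so Acta2 is widely read as a sign of that change.

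Levels are the FPKM values the authors deposited, which scale the fragments of a gene to its length and to a factor of the library. Levels can thus be set between genes. That factor was not just the total of fragments in genes, as values lay at 0.957 to 1.07 times those scaled to that total. Each library held 14653777 to 19365220 fragments in genes. Cartilage genes were abundant, with Col2a1, the main cartilage collagen, at 1059 to 3501 FPKM and Acan, the large cartilage proteoglycan, at 57.8 to 86.3 FPKM. Macrophage genes were detected too, and in such bulk RNA fewer cells of a type and less RNA per cell cannot be told apart. A set of 4 libraries stood apart from the other 16, namely Vehicle replicates 2, 3 and 4 and 25HC3S replicate 1. They had 237 to 1171 genes with exactly 1 fragment, against 1808 to 2057 in the others, and detected 16346 to 19648 genes, against 20847 to 21607. Their values also lay highest beside those scaled to total fragments, at 1.02 to 1.07 times, against at most 1.01 in the others. Each count of members or list genes called is therefore also given without these 4 libraries, a choice made after seeing the data that leaves Vehicle with 2 libraries.

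Acta2, Acta1 and Actg2 encode actins. Acta2 encodes α smooth muscle actin and lies on chromosome 19 from 34241090 to 34255336 on the minus strand, in the coordinates of the deposited table. Acta1, skeletal muscle α-actin, lies on the minus strand at chr8:123891769-123894751, and Actg2, the γ actin of visceral smooth muscle, on the minus strand at chr6:83512905-83536265. Myl9, on the plus strand at chr2:156775420-156781658, encodes the regulatory light chain of smooth muscle myosin, whose phosphorylation switches contraction on. Cnn1, calponin, binds actin and restrains myosin, and lies on the plus strand at chr9:22099216-22109630. Tpm1, on the minus strand at chr9:67022590-67049406, and Tpm2, on the minus strand at chr4:43514711-43523765, encode tropomyosins that wrap the actin filament. Tagln, transgelin or SM22α, an actin-bundling protein, lies on the minus strand at chr9:45929619-45936058. The positions of 7 members were identical to those of GENCODE release M21 on build GRCm38; for Acta2 that release ends the gene at 34255590.

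The CArG box, the element bound by SRF, was looked for on both strands in the 250 bases before the annotated start of each gene, from the RefSeq promoter table on build GRCm38.p6. The table matched 6 of the 8 members, and the boxes found in 3 of them are shown since SRF control is what these genes are best known for. Each line is 30 bases of the gene's own strand, 5′ to 3′, with the box in capitals; Acta1 at 73 bases and Myl9 at 161 bases before the start matched in full, and the other 5 with 1 base changed.
Acta2, chr19:34255438-34255467, minus strand, 84 bases before the start: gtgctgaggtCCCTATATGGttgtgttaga
Acta2, chr19:34255388-34255417, minus strand, 34 bases before the start: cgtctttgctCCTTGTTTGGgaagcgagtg
Acta1, chr8:123894961-123894990, minus strand, 205 bases before the start: gggatactctCCATATACGGcctggtccgg
Acta1, chr8:123894910-123894939, minus strand, 154 bases before the start: ccagtcctctCCTTCTTTGGtcagtgcagg
Acta1, chr8:123894829-123894858, minus strand, 73 bases before the start: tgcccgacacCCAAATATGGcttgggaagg
Myl9, chr2:156775293-156775322, plus strand, 161 bases before the start: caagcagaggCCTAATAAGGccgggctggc
Myl9, chr2:156775355-156775384, plus strand, 99 bases before the start: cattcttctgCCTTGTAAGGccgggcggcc
Of all 32851 promoters in the table, 1.467% held a full match and 8.593% a full match or one with 1 base changed. No such letters were found in the windows of Cnn1, Tpm1 and Tpm2. These matches describe sequence; binding was not measured.

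The members covered a wide range of levels. By median over the 20 libraries, Acta2 had 380 FPKM and ranked 52 of 54532 genes. Tpm1 followed with 77.4 FPKM, Myl9 with 68.3 FPKM and Tpm2 with 36.7 FPKM. Actg2 had 13.3 FPKM, Cnn1 9.98 FPKM, Acta1 3.24 FPKM and Tagln 1.02 FPKM, the lowest of the 8. Tagln is usually among the abundant transcripts of smooth muscle, and here it was low, with 18 to 64 fragments in a library, while Acta2 had 7844 to 17995. Acta2 alone made up 64.2% of the members' summed FPKM with 25HC3S, 65.8% with 25HC, 67.1% with GW3965 and 66.1% with Vehicle. Per length, the mean of Acta2 was below that of β-actin in every group, as Actb averaged 639 ± 71.3 FPKM with 25HC3S, 733 ± 33.8 with 25HC, 754 ± 30.2 with GW3965 and 865 ± 152 with Vehicle (SD, n = 5 each).

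Several markers of mature muscle were low. Myh11, the smooth muscle myosin heavy chain, had 0.458 to 1.52 FPKM. Myocd, the smooth muscle coactivator of SRF, had at most 0.129 FPKM, and Des, muscle desmin, at most 1.12 FPKM. They belong to a list of 12 other smooth muscle contractile genes, of which 3 stayed below 1 FPKM in all libraries. Some genes of that list were higher. Group means were 17.0 (Vehicle) to 23.4 FPKM (25HC) for Smtn and 62.5 (25HC) to 76.9 FPKM (Vehicle) for Cald1. Those of Csrp1 were 38.8 (25HC3S) to 60.0 FPKM (GW3965). Of 11 skeletal muscle markers, 8 stayed below 1 FPKM in all 20 libraries. Ckm, muscle creatine kinase, had a median of 0 and reached 0.0379 FPKM. The summed level of those 11 was 2.74 to 3.90 FPKM with 25HC3S, 3.395 to 4.88 with 25HC, 3.28 to 5.74 with GW3965 and 3.52 to 5.95 with Vehicle, and the ranges overlapped. Of 8 pericyte and vascular smooth muscle markers 3 stayed below 1 FPKM in all libraries, while Pdgfrb at 84.7 to 102 FPKM and Cspg4 at 27.96 to 39.7 FPKM carried most of the sum.

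**Figure D1:**
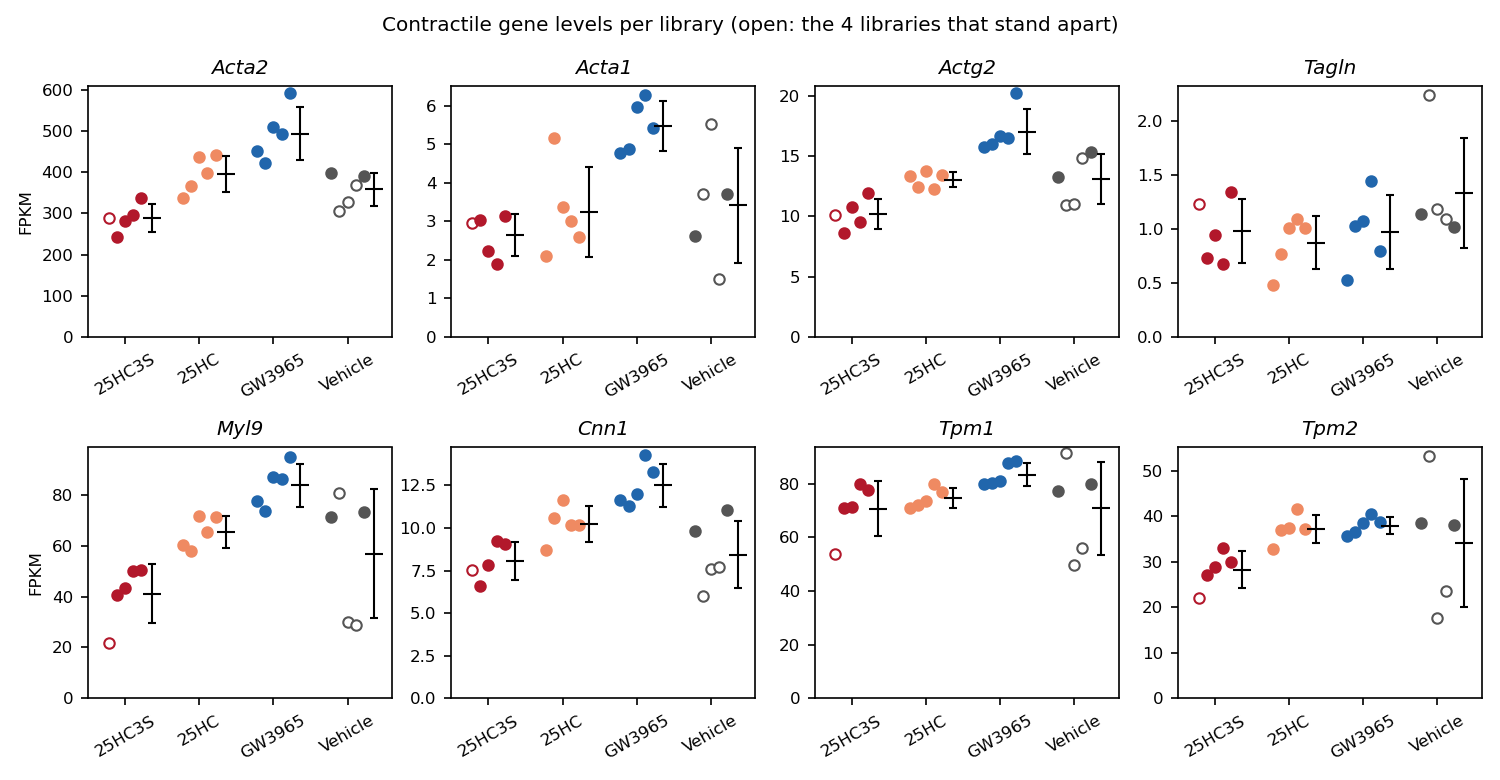
FPKM of each of the 8 genes in every library, by group; points are libraries, open points the 4 libraries that stand apart, and the bar and whiskers the group mean and SD (n = 5). Acta2 with GW3965 sits at 423 to 592 FPKM, above all Vehicle libraries, and Myl9 falls to 21.7 to 29.8 FPKM in 3 of the open points.

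Across groups the order was similar for most members: GW3965 had the highest mean for 7 of 8 and 25HC3S the lowest for 7 of 8, with Tagln the exception in both. GW3965 was used at another dose than the oxysterols, so its place beside them is given as values only. Neighbours in that order mostly overlapped. The ranges of neighbouring groups did not overlap in 3 cases, for Actg2 between 25HC3S and 25HC, for Actg2 between GW3965 and Vehicle, and for Myl9 between GW3965 and 25HC. Of all tested genes, 4.02% lay wholly below for 25HC3S against 25HC and 3.79% wholly above for GW3965 against Vehicle. The share for GW3965 against 25HC was not counted. Nor was the share of all genes with GW3965 highest or 25HC3S lowest.

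The sulfated and the free oxysterol were compared at the same dose and time, in 1 pair of compounds. The level of Acta2 was lower with the sulfated form in every library. It had 289, 243, 280, 297 and 337 FPKM with 25HC3S, against 339, 365, 436, 397 and 441 FPKM with 25HC. The highest 25HC3S library lay just under the lowest 25HC library. The log2 difference of Acta2 was -0.45 ± 0.11 (SE; 95% interval -0.68 to -0.22), which did not pass over all genes (limma, adjusted p = 0.061).

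Actg2 and Myl9 showed the same separation of libraries. Actg2 had 10.1, 8.62, 10.8, 9.54 and 11.9 FPKM with 25HC3S, against 13.3, 12.5, 13.8, 12.3 and 13.5 FPKM with 25HC. Myl9 had 21.7, 40.5, 43.3, 49.997 and 50.6 FPKM with 25HC3S, against 60.4, 58.1, 71.8, 65.4 and 71.2 FPKM with 25HC. Both genes were below every 25HC library in all 5 25HC3S libraries. The log2 difference was -0.33 ± 0.10 (interval -0.54 to -0.13; adjusted p = 0.19) for Actg2 and -0.71 ± 0.27 (interval -1.26 to -0.15; adjusted p = 0.45) for Myl9, where the first 25HC3S library, one of those that stand apart, was the lowest.

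The remaining 5 members overlapped between the 2 oxysterols. Cnn1 averaged 8.06 ± 1.11 FPKM with 25HC3S and 10.2 ± 1.05 with 25HC, a log2 difference of -0.32 (interval -0.57 to -0.06; adjusted p = 0.48). Tpm2 averaged 28.2 ± 4.05 FPKM with 25HC3S and 37.2 ± 3.12 with 25HC, a difference of -0.39 (interval -0.81 to 0.02, adjusted p = 0.75). The spread behind these p-values also takes in the Vehicle libraries, where the SD was 14.1 FPKM for Tpm2 and 25.4 for Myl9. Acta1, Tpm1 and Tagln had differences of -0.19 (interval -0.62 to 0.24), -0.09 (interval -0.37 to 0.19) and 0.08 (interval -0.24 to 0.40), and these intervals reach both sides of 0. None of the 8 was called at an adjusted p under 0.05, where 0.816% of the 12752 tested genes were called, 0.659% lower and 0.157% higher, and where 4.02% of genes lay wholly below and 3.27% wholly above; 908 genes had an unadjusted p under 0.05. The median over the members was -0.32 and over all tested genes 0.00. With the 4 libraries left out, 4 members were called lower with 25HC3S, where 4.7% of genes were: Acta2 at -0.45 (adjusted p = 0.015), Actg2 at -0.33 (adjusted p = 0.022), Myl9 at -0.50 (adjusted p = 0.0018) and Tpm2 at -0.31 (adjusted p = 0.0054). Leaving out 25HC3S replicate 5 alone brought Acta2 under the threshold, at -0.51 (adjusted p = 0.043), where 0.557% of genes were called. That library had the highest Acta2 of the 25HC3S group, so the gap had to widen without it. Leaving out any other single library did not give this call.

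Against Vehicle, 25HC3S libraries had lower mean FPKM of all 8 members, and no member was called, where 1.61% of genes were. Acta2 had 289, 243, 280, 297 and 337 FPKM with 25HC3S, against 398, 306, 328, 370 and 390 FPKM with Vehicle. The groups overlapped through 25HC3S replicate 5 and Vehicle replicates 2 and 3. The log2 difference of Acta2 was -0.31 ± 0.11 (adjusted p = 0.17). Actg2 averaged 10.2 ± 1.25 FPKM with 25HC3S and 13.1 ± 2.07 with Vehicle, a difference of -0.32 ± 0.10 (adjusted p = 0.12). The regulatory light chain Myl9 differed by -0.38 ± 0.27 (adjusted p = 0.45), as Vehicle held both high and low libraries, with 71.2, 80.8, 29.8, 28.7 and 73.4 FPKM.

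Among the thin-filament genes, Tpm2 averaged 28.2 ± 4.05 FPKM with 25HC3S and 34.2 ± 14.1 with Vehicle, a difference of -0.18 ± 0.20. Cnn1 (-0.04 ± 0.12), Tpm1 (0.02 ± 0.13 on the log2 scale, with mean FPKM of 70.7 for 25HC3S and 70.8 for Vehicle), Tagln (-0.22 ± 0.15) and Acta1 (-0.22 ± 0.21) had adjusted p of 0.43 to 0.94. Of all tested genes, 1.14% were called lower and 0.463% higher in this comparison, and 2183 had an unadjusted p under 0.05. The median difference of the members was -0.22 and that of all tested genes 0.02. Leaving out the 4 libraries gave 3 members called lower, beside 2.63% of genes: Actg2 at -0.45 (adjusted p = 0.027), Myl9 at -0.65 (adjusted p = 0.0028) and Tpm2 at -0.36 (adjusted p = 0.019). Acta2 was then at -0.45 (adjusted p = 0.075). Leaving out Vehicle replicate 2 alone brought Actg2 to -0.38 (adjusted p = 0.048), where 2.29% of genes were called. That library had the lowest Actg2 of the Vehicle group, and leaving out any other single library did not give this call.

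With GW3965, 3 members rose against Vehicle in the fit over 20 libraries, where 6.46% of genes were called, 3.49% higher and 2.97% lower. They were Acta2, Actg2 and Cnn1. Acta2 had 451, 423, 511, 493 and 592 FPKM with GW3965, against 398, 306, 328, 370 and 390 FPKM with Vehicle. Every GW3965 library lay above every Vehicle library, as in 3.79% of all tested genes, while 3.29% lay wholly below. The log2 difference of Acta2 was 0.46 ± 0.11, a 1.37-fold change on this scale (adjusted p = 0.015). Actg2 had 15.7, 16.0, 16.7, 16.5 and 20.3 FPKM with GW3965, against 13.2, 10.9, 11.0, 14.9 and 15.3 FPKM with Vehicle. Here too the groups did not overlap, though the lowest GW3965 library was close to the highest Vehicle one, and the difference was 0.37 ± 0.10 (adjusted p = 0.033). Cnn1 had 11.6, 11.3, 12.0, 14.3 and 13.3 FPKM with GW3965, against 9.79, 6.03, 7.58, 7.70 and 11.0 FPKM with Vehicle. Its groups did not overlap, and the difference was 0.54 ± 0.12 (adjusted p = 0.013).

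The other 5 members did not pass with GW3965. Acta1 had 4.78, 4.89, 5.97, 6.27 and 5.42 FPKM with GW3965, against 2.61, 3.70, 5.53, 1.496 and 3.70 FPKM with Vehicle. Only Vehicle replicate 3 reached into the GW3965 range, and the difference was 0.62 ± 0.21 (adjusted p = 0.072). Myl9 had 77.6, 73.5, 86.9, 86.2 and 94.99 FPKM with GW3965, against 71.2, 80.8, 29.8, 28.7 and 73.4 FPKM with Vehicle, a difference of 0.68 ± 0.27 (adjusted p = 0.10). Vehicle replicates 3 and 4 were far below the rest, Vehicle replicates 1, 2 and 5 lay at or near the GW3965 libraries, and the difference without the 4 libraries was 0.20. Tpm1 averaged 83.4 ± 4.26 FPKM with GW3965 and 70.8 ± 17.3 with Vehicle (0.27 ± 0.13, adjusted p = 0.17), and Tpm2 37.9 ± 1.94 FPKM with GW3965 and 34.2 ± 14.1 with Vehicle (0.24 ± 0.20, adjusted p = 0.38). Tagln differed by -0.23 ± 0.15 (adjusted p = 0.27). The median over the members was 0.41, and over all tested genes 0.02.

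The GW3965 calls depended on which libraries and groups entered the fit. In the fit without the 4 libraries no member was called, where 3.98% of genes were called higher: Acta2 was at 0.32 (adjusted p = 0.19), Actg2 at 0.24 (adjusted p = 0.21), Cnn1 at 0.24 (adjusted p = 0.28), Acta1 at 0.64 (adjusted p = 0.074) and Tpm2 at -0.02. In a fit of only the GW3965 and Vehicle libraries none passed either, with adjusted p of 0.11 for Acta2, 0.20 for Actg2 and 0.12 for Cnn1. The call of Actg2 was also lost on leaving out any one of GW3965 replicates 2, 3, 4 and 5 or Vehicle replicates 2 and 3, at differences of 0.31 to 0.39 and adjusted p of 0.055 to 0.087. Leaving out Vehicle replicate 5 gave 5 calls, in a fit where 23.5% of all genes were called, with Acta1 at 0.66 (adjusted p = 0.043) and Myl9 at 0.81 (adjusted p = 0.044) added. Without Vehicle replicate 1, where 25.5% of genes were called, Myl9 passed at 0.80 (adjusted p = 0.045). Without Vehicle replicate 3, where 4.35% of genes were called, Acta1 passed at 0.78 (adjusted p = 0.026).

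With 25HC no member was called, and the background was as low, since 0.0392% of genes were called, 0.0314% higher and 0.00784% lower, although 3863 had an unadjusted p under 0.05. Acta2 had 339, 365, 436, 397 and 441 FPKM with 25HC, against 398, 306, 328, 370 and 390 FPKM with Vehicle. The 2 groups overlapped over most of their range, and the difference was 0.14 ± 0.11 (interval -0.08 to 0.37; adjusted p = 0.34). Cnn1 had the lowest adjusted p of the 8, with 8.69, 10.6, 11.6, 10.2 and 10.2 FPKM for 25HC and 9.79, 6.03, 7.58, 7.70 and 11.0 FPKM for Vehicle (0.27 ± 0.12, adjusted p = 0.16). Leaving out Vehicle replicate 5 alone brought Cnn1 to 0.37 (adjusted p = 0.045), in a fit where 16.4% of all genes were called. That library had the highest Cnn1 of the Vehicle group, and leaving out any other single library did not give this call. Differences of the other 6 were -0.30 for Tagln, -0.03 for Acta1, 0.01 for Actg2, 0.11 for Tpm1, 0.21 for Tpm2 and 0.33 for Myl9, with adjusted p of 0.18 to 0.95. The members' median was 0.13, against 0.03 over all tested genes. Without the 4 libraries 7 of the 8 differences changed sign, Acta2 stood at -0.00, and no member was called.

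**Figure D2:**
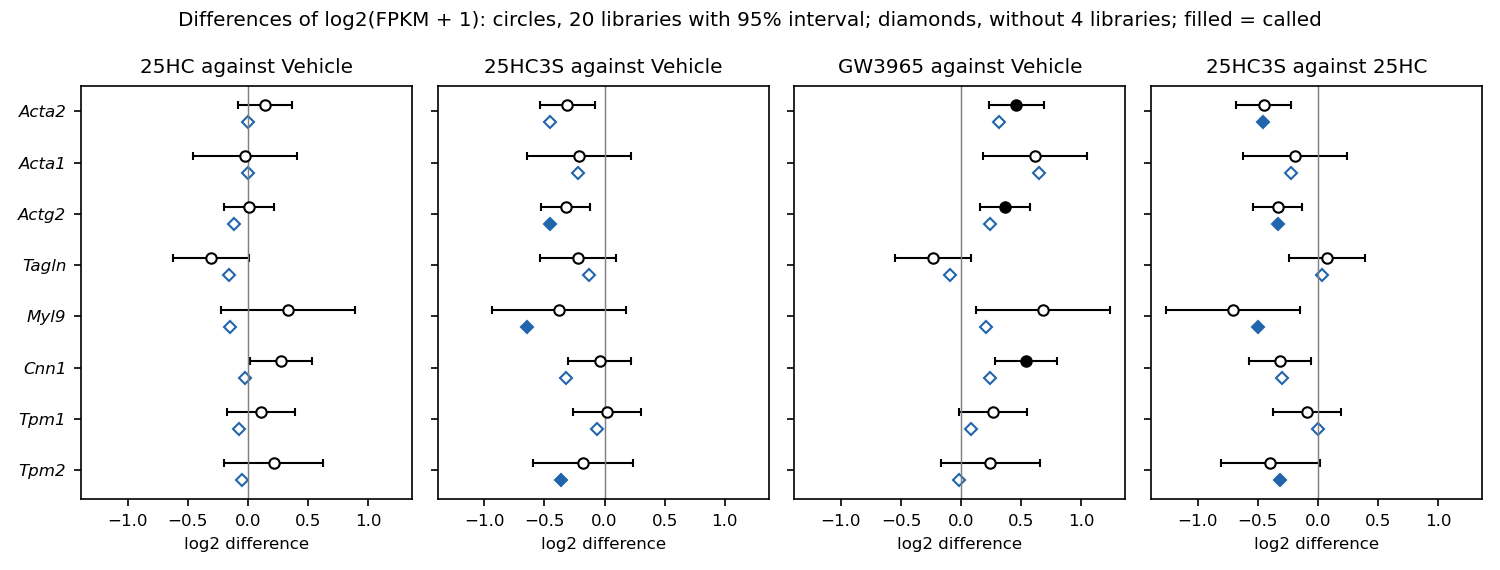
Differences of log2(FPKM + 1) of the 8 genes in 4 comparisons; circles are the fit over 20 libraries with 95% intervals, diamonds the fit without the 4 libraries, and filled marks have an adjusted p under 0.05. Acta2, Actg2 and Cnn1 are filled circles for GW3965 against Vehicle only, and the filled diamonds lie left of 0 in the comparisons of 25HC3S.

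The comparisons with Vehicle share the same 5 Vehicle libraries. The libraries that stand apart moved the members unequally. Log2 deviations were taken from the mean of their group's libraries that did not stand apart, which for Vehicle are only replicates 1 and 5. The deviation of Myl9 was -1.25 in Vehicle replicate 3, -1.31 in Vehicle replicate 4 and -1.05 in 25HC3S replicate 1. That of Tpm1 was -0.65, -0.47 and -0.47 in the same libraries. In Vehicle replicate 2, Myl9 was at 0.16 and Tpm1 at 0.22. Acta2 was at -0.37, -0.26 and -0.09 in Vehicle replicates 2, 3 and 4 and at 0.01 in 25HC3S replicate 1, so that Vehicle replicate 2 was low for Acta2 and not for Myl9 and Tpm1. Mitochondrial transcripts took 0.369% to 4.07% of the fragments in these 4 libraries, against 0.889% to 1.41% in the others, and the part of RNA quality or library preparation in the members' values was not tested.

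Some members went together across the 20 libraries, described by Pearson correlations of log2(FPKM + 1), without a test, over libraries that share groups. Acta2 went with Actg2 (r = 0.93) and Cnn1 (r = 0.87). Myl9, Tpm1 and Tpm2 went together, at 0.90 for Myl9 with Tpm1, 0.89 for Myl9 with Tpm2 and 0.92 for Tpm1 with Tpm2. Acta1 had r = 0.53 with Acta2 and 0.26 with Tpm1. Over the 16 libraries left without those that stand apart the grouping was not kept: Myl9 had r = 0.97 and Tpm2 0.82 with Acta2, and Tpm2 had 0.84 with Cnn1, while Tpm1 with Tpm2 had 0.62 and Myl9 with Tpm1 0.73. Over all 20, Myl9 had 0.69 and Tpm2 0.46 with Acta2. After group means were subtracted, Acta2 still had r = 0.76 with Actg2 and 0.75 with Cnn1 over 20 libraries, and 0.25 with Myl9, or 0.94 with Myl9 over the 16. Tagln had r = -0.04 with Acta2, at a level where few fragments were counted.

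**Figure D3:**
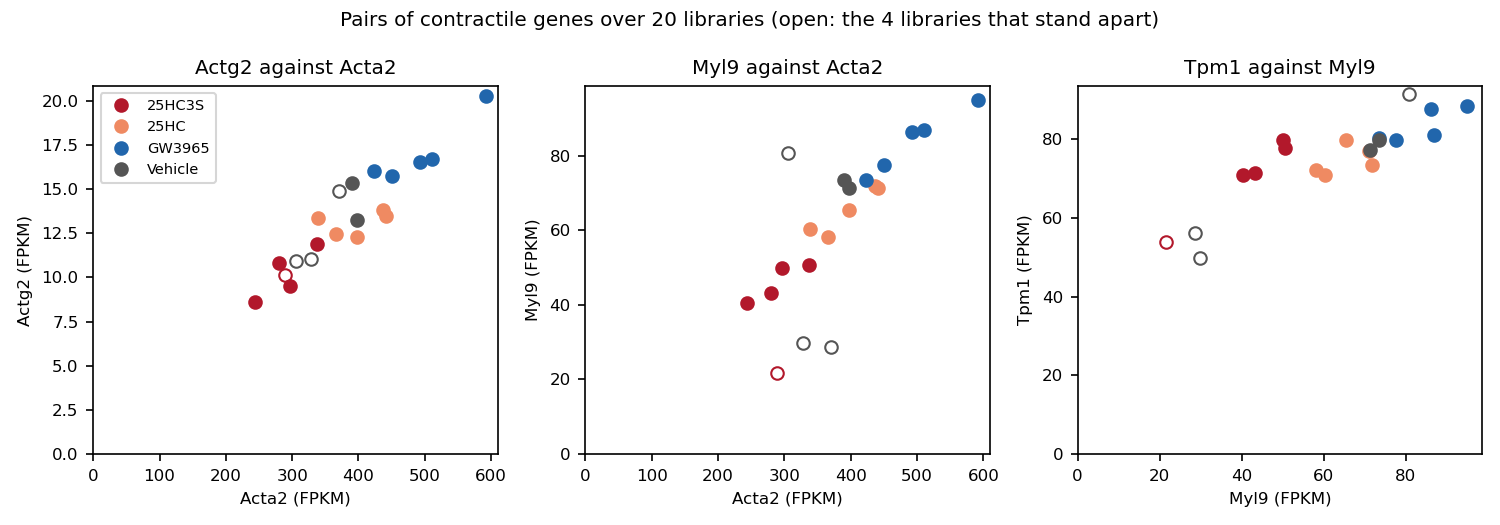
FPKM of Actg2 and of Myl9 against Acta2, and of Tpm1 against Myl9, one point per library, coloured by group; open points are the 4 libraries that stand apart. Actg2 and Acta2 go up together across groups, while 3 open points have low Myl9 for their Acta2.

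Among tested genes outside the 8, those with the highest correlations with Acta2 over 20 libraries included Fdft1 (r = 0.92), Srebf2 (0.91), Lrrc27 (0.90) and Sqle (0.89). Fdft1 and Sqle encode enzymes of cholesterol synthesis, and Srebf2 encodes the factor that drives that pathway. Fdft1 averaged 4.42 FPKM with 25HC3S, 10.52 with 25HC, 14.9 with GW3965 and 8.22 with Vehicle, so that its order of groups was that of Acta2. Sqle averaged 6.69 FPKM with 25HC3S, 16.1 with 25HC, 22.1 with GW3965 and 11.6 with Vehicle, in the same order. Both genes were picked for their correlation with Acta2 in these same libraries, so a like order of groups follows largely from that choice. Once group means were subtracted the 5 most similar genes were others, led by Gm27415 (0.87) and Rspo2 (0.79), a secreted Wnt agonist. Fdft1 then had 0.65 and Sqle 0.43.

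The list of 12 other smooth muscle contractile genes was read beside the members, and 6 of the 12 were abundant enough to test. Over 20 libraries, 0.659% of all tested genes were called lower for 25HC3S against 25HC and 1.14% for 25HC3S against Vehicle. For GW3965 against Vehicle, 3.49% were called higher. The calls of this list and of those below stand beside these shares. Csrp1, a LIM-domain protein bound to actin bundles, fell with 25HC3S. It averaged 38.8 ± 0.888 FPKM with 25HC3S, 48.9 ± 3.46 with 25HC, 60.0 ± 3.69 with GW3965 and 50.7 ± 4.57 with Vehicle. Csrp1 differed by -0.32 ± 0.07 for 25HC3S against 25HC (adjusted p = 0.022), by -0.37 ± 0.07 for 25HC3S against Vehicle (adjusted p = 0.0055) and by 0.24 ± 0.07 for GW3965 against Vehicle (adjusted p = 0.04). Lmod1, leiomodin, which seeds actin filaments in smooth muscle, averaged 4.58 ± 0.232 FPKM with GW3965 and 2.40 ± 0.851 with Vehicle, a rise of 0.75 ± 0.14 (adjusted p = 0.0027). No gene of this list was called with 25HC. The largest differences there were 0.54 for Smtn and -0.28 for Cald1, both with adjusted p of 0.15. Without the 4 libraries Smtn was at 0.029 and Cald1 at -0.009 with 25HC. Medians of the 6 were -0.15 for 25HC3S against 25HC, -0.15 for 25HC3S against Vehicle, 0.21 for GW3965 against Vehicle and -0.03 for 25HC against Vehicle. Without the 4 libraries Csrp1 stayed called lower in both comparisons of 25HC3S, at -0.32 against 25HC and -0.44 against Vehicle, and Lmod1 higher with GW3965 at 0.37. Csrp1 was then no longer called with GW3965, while Cald1 (0.21) was called higher and Smtn (-0.27) lower.

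Of the non-muscle counterparts, 12 of 12 were tested, and their differences went both ways. Actb, β-actin, fell with 25HC3S, at 639 ± 71.3 FPKM against 865 ± 152 with Vehicle (-0.43 ± 0.10, adjusted p = 0.033). Cnn2, a calponin of non-muscle cells, rose with GW3965, at 135 ± 4.82 FPKM against 112 ± 16.5 with Vehicle (0.29 ± 0.08, adjusted p = 0.04). No other gene of this list was called in the 4 comparisons. The largest differences with 25HC were 0.73 for Myl6, a myosin essential light chain, and 0.51 for Myl12a, a non-muscle regulatory light chain. Both were above that of Myl9 and had an adjusted p of 0.15. Without the 4 libraries Myl6 was at 0.002 and Myl12a at 0.086 with 25HC. Their medians were -0.07 for 25HC3S against 25HC, -0.02 for 25HC3S against Vehicle, 0.08 for GW3965 against Vehicle and 0.01 for 25HC against Vehicle. The fit without the 4 libraries called Actb lower with 25HC3S, at -0.27 against 25HC and -0.28 against Vehicle, and likewise Cnn2, at -0.15 against 25HC and -0.18 against Vehicle. Actg1, γ-actin, was then lower with 25HC3S against 25HC, at -0.17, and with GW3965 Tagln2 was called lower (-0.17) and Cnn2 was not called.

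SRF, its MRTF partners and their targets, 14 of 14 tested, held 1 call, for GW3965 against Vehicle, where 3.49% of all tested genes were called higher. Ccn1, a secreted matricellular protein, averaged 297 ± 12.6 FPKM with GW3965 and 189 ± 63.9 with Vehicle, a rise of 0.72 ± 0.19 (adjusted p = 0.03). Ccn1 was not called with 25HC3S, at 271 ± 55.8 FPKM (0.55 ± 0.19, adjusted p = 0.16), although its mean was above that of Vehicle while those of Acta2, Actg2 and Myl9 were below. Srf itself averaged 14.1 ± 0.835 FPKM with 25HC3S, 16.1 ± 0.640 with 25HC, 16.0 ± 0.995 with GW3965 and 14.4 ± 1.43 with Vehicle, and was not called in any of the 4 comparisons. The medians of the list were -0.04 for 25HC3S against 25HC, -0.01 for 25HC3S against Vehicle, 0.23 for GW3965 against Vehicle and 0.13 for 25HC against Vehicle. Without the 4 libraries Ccn1 rose in 3 comparisons, by 0.32 with 25HC3S against 25HC, by 0.26 with 25HC3S against Vehicle and by 0.27 with GW3965 against Vehicle. In those fits Ccn2 (0.25), Vcl (0.29) and Fhl1 (0.23) were also called higher with GW3965, where 3.98% of all tested genes were. For 25HC3S against 25HC, 4.7% of all tested genes were then lower and 2.49% higher. For 25HC3S against Vehicle, 2.63% were lower and 1.33% higher. With 25HC3S, Fhl2 was called higher, at 0.26 against 25HC and 0.31 against Vehicle, and Flna and Tgfb1i1 lower, at -0.13 and -0.12 against 25HC and at -0.18 and -0.24 against Vehicle.

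None of the 12 genes of the TGF-beta and RhoA inputs, the signals known to raise contractile genes, was called in any comparison of 20 libraries. The largest differences were -0.49 for Tgfb2, a TGF-beta ligand, with 25HC3S against Vehicle (adjusted p = 0.10) and -0.52 for Rock2, a kinase downstream of RhoA, with 25HC against Vehicle (adjusted p = 0.15). Tgfb2 averaged 30.6 ± 5.93 FPKM with 25HC3S, 34.1 ± 1.08 with 25HC, 39.6 ± 0.935 with GW3965 and 44.2 ± 12.7 with Vehicle. Without the 4 libraries Tgfb2 was called lower with 25HC3S, at -0.28 against 25HC and -0.33 against Vehicle, and higher with GW3965 at 0.16. Tgfb3 was then lower with 25HC3S against 25HC, at -0.24. Rock2 was at -0.045 with 25HC against Vehicle in that fit. For 25HC no gene of these 4 lists was called in it.

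**Figure D4:**
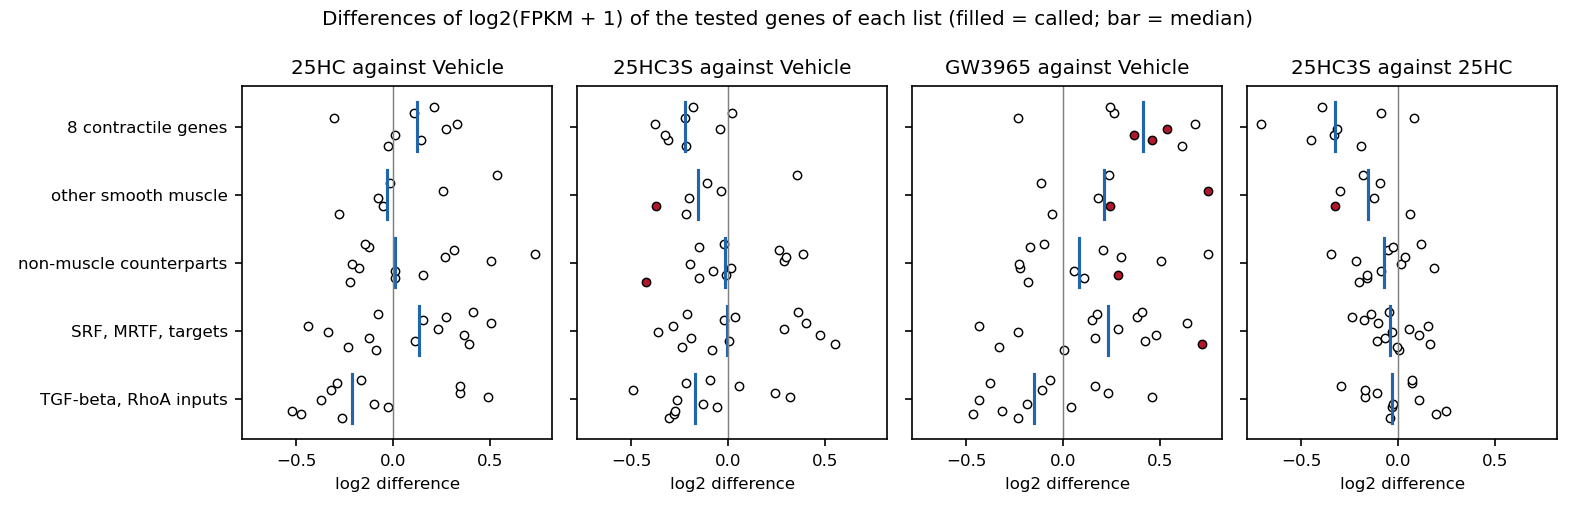
Differences of log2(FPKM + 1) of the tested genes of each list in 4 comparisons, with one point per gene, filled where the adjusted p is under 0.05, and a bar at the list's median. The median of the 8 contractile genes is 0.41 for GW3965 against Vehicle and -0.32 for 25HC3S against 25HC.

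Markers of other cell types moved with some groups. Col1a1 at 2228 to 5358 FPKM and Col1a2 at 994 to 2642 FPKM carried most of the sum of the fibroblast markers. The summed level of 9 synovial and tendon fibroblast markers was 4325 to 4558 FPKM with 25HC3S, 4807 to 5572 with 25HC, 4423 to 5228 with GW3965 and 3795 to 8902 with Vehicle; none of the 9 was at 0 in all libraries. That of 8 pericyte and vascular smooth muscle markers was 123 to 140, 132 to 140, 134 to 143 and 119 to 132 FPKM in the same order of groups, and Cspg4 of that list rose with GW3965 by 0.27 (adjusted p = 0.034). That of 7 macrophage markers was 330 to 606, 572 to 801, 725 to 821 and 357 to 824 FPKM, and that of 10 chondrocyte markers 2484 to 3774, 3729 to 4092, 3933 to 4855 and 1796 to 5166 FPKM. Of the 7 macrophage markers, 2 were called lower and 1 higher with 25HC3S in both of its comparisons, and 2 lower with GW3965. Of the 9 fibroblast markers, Postn, a matricellular protein, was called lower with 25HC3S, at -0.41 against 25HC and -0.46 against Vehicle. With 25HC3S, 5 of the 9 lay wholly below 25HC and 1 wholly above, as did 4.02% and 3.27% of all tested genes. Of all tested genes, 0.659% were called lower with 25HC3S against 25HC, 1.14% with 25HC3S against Vehicle and 2.97% with GW3965 against Vehicle. No chondrocyte marker was called in the fits over 20 libraries.

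More of these markers were called with 25HC3S in the fits without the 4 libraries, which also gave the members' calls with 25HC3S. More genes of the whole table were called there too. Of all tested genes, 4.7% were lower and 2.49% higher for 25HC3S against 25HC. These shares were 2.63% and 1.33% for 25HC3S against Vehicle, and 3.79% and 3.98% for GW3965 against Vehicle. For 25HC3S against 25HC, 5 macrophage markers were lower and 1 higher, 3 fibroblast markers lower (Col3a1 at -0.50, Postn at -0.46 and Col1a1 at -0.21) and Pdpn higher at 0.34, and 3 chondrocyte markers lower (Acan at -0.38, Matn1 at -0.40 and Comp at -0.27). Pdgfrb, a pericyte marker, was lower at -0.12. For 25HC3S against Vehicle, 4 macrophage markers were lower and 1 higher, 3 fibroblast markers lower (Col3a1 at -0.49, Postn at -0.52 and Scx at -0.32) and Pdpn higher at 0.32, and Matn1 lower at -0.55. For GW3965 against Vehicle, Col2a1 was higher at 0.49 and Matn1 lower at -0.55, Cspg4 higher at 0.24 and Mrc1 lower at -0.72. No marker was called for 25HC. The part of these cell types in the members' differences was not tested.

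Several members share sequence with relatives, which bears on how exactly fragments were assigned. The coding sequence of Acta2 was identical to that of Acta1 at 85.4% of aligned bases and to that of Actg2 at 84.2%, with no identical run over 29 bases in either; with Actg1 the longest run was 56 bases. The program that assigned fragments is not given in the sources used here. For Tagln, 1241 exon bases overlap Gm48529, an antisense gene on the plus strand, and 108 overlap Pcsk7, in all 67.9% of its 1988 exon bases, so its low values are uncertain without the strand setting. No other member shared exon bases with another gene.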

How the data were processed

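Bulk RNA was sequenced from 20 libraries in 4 groups of 5. The authors deposited one table of FPKM per gene; CASAVA 1.8 and HISAT2 2.0.5 were used, per the submitters' processing notes. The counter, strand setting and build were not given in the sources used here, while 99.8% of gene identifiers were in GENCODE M21, and 98.3% of those had the same position. FPKM times gene length gave whole fragments within 0.02 for 100% of values, which gave depth. Depth describes counting error only. FPKM is not a count, so limma 3.58.1 in R 4.3.3 was run on log2(FPKM + 1), which understates differences of low genes such as Tagln. Of 54532 genes, the 12752 that reached an FPKM of 1 in 5 or more libraries were tested, with one mean per group over 20 libraries and a trended variance. Tests were two-sided, p was adjusted by Benjamini-Hochberg over all 12752 genes of a comparison, and an adjusted p under 0.05 was called. The steps were tested on simulated data with equal spread in all groups. No simulated library stood apart, so that test cannot show how the steps behave with such libraries. The members, the lists and the comparisons were chosen with earlier results of these data known. Named genes were all 8 members, the called genes of each list (at most 4) or its largest 2, and the 5 genes most like Acta2, of which 1 is not reported here. Promoter bases are from RefSeq. Same-numbered libraries are not paired in the labels. Alternatives were a pseudocount of 0.1, no filter, median-of-ratios scaling, a fit of 2 groups, a replicate block, voom on recovered fragments, each library left out, and, chosen after seeing the data, scaling to total fragments and leaving out the 4 libraries that stand apart. The deposited FPKM had equal median-of-ratios factors in all 20 libraries, so that scaling was no check.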

Additional observations from a re-analysis of the deposited data

Results flagged for a closer look

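Of the 32 groups of 5 libraries (8 genes in 4 groups), 2 held a library whose gap to the nearest other exceeded 0.71 of the group's range. Actg2 was 20.3 FPKM in GW3965 replicate 5, against 15.7 to 16.7 FPKM in the other 4 GW3965 libraries. Tagln was 2.23 FPKM in Vehicle replicate 2, one of the libraries that stand apart, against 1.02 to 1.18 FPKM in the other 4 Vehicle libraries. Chance flags about 1 in 20 such groups.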

How the results depend on the processing

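A pseudocount of 0.1, voom on recovered fragments and scaling to total fragments (chosen after seeing the data) left the count of called members as reported in all 4 comparisons. Median-of-ratios scaling could change nothing, since its factor was 1.008 for all 20 libraries. Under scaling to total fragments the median over all genes was at most 0.06; with no filter GW3965 against Vehicle had 2, as Actg2 went to an adjusted p of 0.059. A fit of only the 2 groups gave 0 members for GW3965 against Vehicle and 1 (Acta2, adjusted p = 0.049) for 25HC3S against 25HC. Over the whole table these fits also called fewer genes for GW3965 against Vehicle and more for 25HC3S against 25HC, as given below. Without the 4 libraries that stand apart 3 members were called for 25HC3S against Vehicle, 0 for GW3965 against Vehicle and 4 for 25HC3S against 25HC. Of all genes, 2.63% were then called lower for 25HC3S against Vehicle, 3.98% higher for GW3965 against Vehicle and 4.7% lower for 25HC3S against 25HC. Leaving out one library gave 0 to 1 for 25HC against Vehicle, 0 to 1 for 25HC3S against Vehicle, 2 to 5 for GW3965 against Vehicle and 0 to 1 for 25HC3S against 25HC. The share of all genes called in those fits was 0.00784% to 20.9%, 0.769% to 4.88%, 3.53% to 25.5% and 0.471% to 0.729% in the same order.

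Same-numbered libraries deviated together in 4 of 30 pairs (correlation above 0.1, range -0.70 to 0.27), and 11 of 60 correlated best with their own number. These correlations cannot tell whether same-numbered libraries share an animal or culture, since the libraries that stand apart also enter them. With the replicate block 1 member (Acta2, adjusted p = 0.013) was called for 25HC3S against 25HC and 3 still for GW3965 against Vehicle. Over the whole table the block called fewer genes than the reported fit in both comparisons.

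Of 576 single-gene results under alternatives, 32 of them under the median-of-ratios scaling that could change nothing, 515 kept direction and side of the threshold, 13 lost and 16 gained a call, and 32 changed sign. Signs turned for 25HC against Vehicle without the 4 libraries (Acta2 -0.0016, Acta1 0.0014, Actg2 -0.12, Myl9 -0.15, Cnn1 -0.026, Tpm1 -0.072, Tpm2 -0.047) with voom (Acta1 0.037) and scaled to total fragments (Acta1 0.01), and without the 4 libraries for Tpm1 with 25HC3S against Vehicle (-0.067), Tpm1 with 25HC3S against 25HC (0.0051) and Tpm2 with GW3965 against Vehicle (-0.017). Leave-one-out ranges that span 0 were, for 25HC against Vehicle, -0.21 to 0.13 (Acta1), -0.048 to 0.066 (Actg2) and -0.0077 to 0.21 (Tpm1); for 25HC3S against Vehicle, -0.14 to 0.053 (Cnn1), -0.10 to 0.12 (Tpm1) and -0.39 to 0.00087 (Tpm2); for 25HC3S against 25HC, -0.13 to 0.0051 (Tpm1) and -0.00064 to 0.14 (Tagln). None of the 3 member differences called in the fit over 20 libraries changed sign.

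Over all genes, 5, 205, 824 and 104 were called for 25HC, 25HC3S and GW3965 against Vehicle and 25HC3S against 25HC; 2-group fits gave 1, 23, 152 and 205, the block 1, 151, 544 and 82, and the fit without the 4 libraries 3, 504, 991 and 916. Leaving out Vehicle replicate 1 or 5 gave 2659 or 2085 for 25HC and 3247 or 2998 for GW3965; the cause was not tested. Depth limits Tagln and Acta1 most, at 18 to 64 and 36 to 171 fragments per library.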
